A study of Mus musculus with 2 samples.

Results

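The genes described here are 10 genes of Sertoli cell identity and secretion, *Clu*, *Defb19*, *Aard*, *Cldn11*, *Sox9*, *Wt1*, *Gata4*, *Ctsl*, *Cst12* and *Cst9*, taken by gene symbol from a table of 53801 mouse genes. Each symbol matched 1 row. The table compares 2 RNA libraries from mouse testis, both labelled as spermatocytes, which are germ cells in meiosis. One is labelled as a knockout of Smc1b, which encodes the meiosis-specific SMC1beta subunit of the cohesin ring, with overexpression of SMC1alpha, the form found in all cells. It is called the labelled knockout here, and the other library is the Smc1b wild type. Each genotype had 1 library. Age, strain, the kind of Smc1b allele, what drives the added SMC1alpha and whether animals were pooled were not stated in the sources used here. The protocol in the labels covers RNA from sorted spermatocytes and from whole testis, and the cell type label of both libraries is spermatocytes. Both titles also end in 4N, a tag with no explanation in the labels, and its bearing on which cells entered the libraries was not tested.

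Sertoli cells are the somatic nurse cells of the seminiferous tubule. They surround the developing germ cells, seal the tubule with tight junctions that form the blood-testis barrier, and secrete proteins into the fluid around the germ cells. Their identity is set and held by transcription factors such as SOX9, WT1 and GATA4. They are not germ cells, so in libraries labelled as spermatocytes their genes are markers of another cell type, and transcription of the same genes in germ cells was not tested.

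Levels are in TPM, a share of all transcripts corrected for transcript length, and each library sums to 1000000. Ratios are labelled knockout over wild type, each as TPM + 1, on a log2 scale, and a gene is counted as 2-fold higher at a ratio of 1 or more on that scale, which understates the difference of genes at low levels. Plain folds are TPM divided by TPM. With no replicates there is no spread between animals and no test. "Higher" and "lower" describe these 2 libraries only, and levels that lie close together cannot be ranked. TPM keeps no counts of reads, and the depth behind a value is unknown beyond the labels' minimum of 40000000 reads per library.

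As context, Smc1b had 62.9 TPM in the labelled knockout and 76.1 TPM in wild type, with a direction that turned under 2 of 3 rescalings, so its level gives no check of the labels. *Smc1a* had 28.8 TPM in the labelled knockout and 0.51 TPM in wild type. In the labelled knockout 20492 genes reached 1 TPM, and in wild type 20222 did. Protein-coding genes made up 49.0% of all TPM in the labelled knockout and 62.6% in wild type. Genes that reached 1 TPM in either library are called measured, and -0.05 was the median log2 ratio of the 15000 measured protein-coding genes.

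All 10 Sertoli genes were higher in the labelled knockout than in wild type, and all 10 were at least 2-fold higher on the log2 (TPM + 1) scale. Across the measured protein-coding genes, 18.7% were at least 2-fold higher. The 10 genes were chosen with earlier results of these data known, so the count is a description only. The median log2 ratio of the 10 genes was 2.27, and single ratios ran between 1.17 (*Sox9*) and 2.80 (*Clu*). At the 4-fold line, 6 of the 10 were counted, against 4.68% of protein-coding genes. *Sox9* and *Gata4* reached 1 TPM in the labelled knockout alone, so their place among the genes counted depended on the difference itself. The other 8 were at 1 TPM or more in wild type as well, all 8 were at least 2-fold higher and their median was 2.42. Of the protein-coding genes at 1 TPM or more in wild type, 12.1% were at least 2-fold higher. In bulk RNA given as shares, more Sertoli cells, more Sertoli RNA per cell and less RNA from other cells cannot be told apart. RNA of the same genes made by other cells was not tested.

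**Figure D1:**
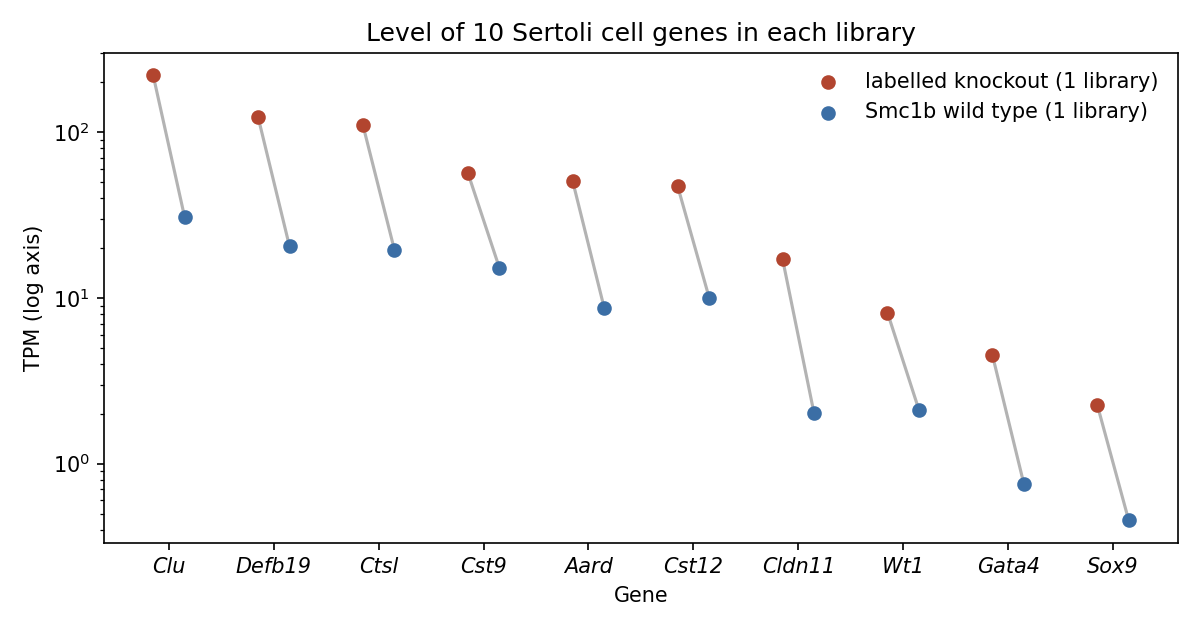
Level of each of the 10 Sertoli genes in TPM (log axis), 1 point per library and gene, with the labelled knockout left of the Smc1b wild type. Every line slopes down to the right, from 221 against 30.7 TPM for *Clu* to 2.27 against 0.46 TPM for *Sox9*, and the gene order is similar in both libraries.

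The 3 transcription factors had the lowest log2 ratios of the 10 genes and, in the labelled knockout, the lowest levels. *Sox9*, which turns on the Sertoli programme in the embryonic testis, had 2.27 TPM in the labelled knockout and 0.46 TPM in wild type. Its log2 ratio of 1.17 was the lowest of the 10, while its plain fold was 4.98. *Wt1*, a zinc finger factor that maintains the Sertoli lineage, had 8.16 TPM in the labelled knockout and 2.11 TPM in wild type, a plain fold of 3.86 and a log2 ratio of 1.56. *Gata4*, a zinc finger factor of the somatic gonad that Leydig cells also express, had 4.54 TPM in the labelled knockout and 0.76 TPM in wild type, a plain fold of 5.99 and a log2 ratio of 1.66. The plain folds of the 3 factors thus lay inside the range of the other 7 genes, and their smaller log2 ratios went with values near the added 1 TPM. *Sox9* lies on chromosome 11 (112782224 to 112787760, plus strand), *Wt1* on chromosome 2 (105126529 to 105173616, plus strand) and *Gata4* on chromosome 14 (63198922 to 63271692, minus strand), all in mm10.

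*Cldn11* had the largest plain fold of the 10. It encodes the tight-junction protein claudin-11 of the blood-testis barrier, and had 17.2 TPM in the labelled knockout and 2.02 TPM in wild type, 8.51-fold higher with a log2 ratio of 2.59. The gene lies on mm10 chromosome 3, 31149920 to 31164324, plus strand. In the labelled knockout it was above *Wt1* (17.2 against 8.16 TPM), while in wild type both were at a similar level (2.02 against 2.11 TPM).

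Among the secreted and lysosomal products, *Clu* was the most abundant of the 10 genes in both libraries. *Clu* encodes clusterin, a secreted chaperone made in bulk by Sertoli cells and also by other cell types. It had 221 TPM in the labelled knockout and 30.7 TPM in wild type, 7.18-fold higher, with the highest log2 ratio of the 10 (2.80). Ranked by TPM among all 22058 protein-coding genes of the table, *Clu* was number 297 in the labelled knockout and number 4236 in wild type. *Clu* lies on mm10 chromosome 14, 65968483 to 65981547, plus strand.

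*Defb19*, a beta-defensin of the antimicrobial peptide family, had 123 TPM in the labelled knockout and 20.5 TPM in wild type, 6.04-fold higher. *Ctsl*, the lysosomal cysteine protease cathepsin L, which Sertoli cells also release, had 110.0 TPM in the labelled knockout and 19.5 TPM in wild type, 5.64-fold higher. Both therefore had similar levels and similar folds, although one encodes a small secreted peptide and the other a protease. *Aard*, named for an alanine- and arginine-rich domain, had 50.4 TPM in the labelled knockout and 8.69 TPM in wild type, 5.80-fold higher. *Defb19* lies on chromosome 2 (152576086 to 152580312, minus strand), *Ctsl* on chromosome 13 (64359337 to 64370890, minus strand) and *Aard* on chromosome 15 (52040107 to 52045722, plus strand).

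*Cst9* and *Cst12* encode members of the cystatin family, whose classical members inhibit cysteine proteases such as cathepsins. *Cst12* had 47.2 TPM in the labelled knockout and 10.1 TPM in wild type, 4.69-fold higher with a log2 ratio of 2.12. *Cst9* had 56.8 TPM in the labelled knockout and 15.2 TPM in wild type, and its fold of 3.73 was the smallest plain fold of the 10. As a pair they summed to 104 TPM in the labelled knockout and 25.3 TPM in wild type. Set against *Ctsl* within each library, the pair was at 0.945 times the *Ctsl* level in the labelled knockout and 1.30 times in wild type. *Cst12* lies on mm10 chromosome 2 at 148789361 to 148793546 and *Cst9* at 148835147 to 148838738, both on the plus strand and 41601 bases apart.

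The 10 genes differed in level by far more than in fold. The highest and lowest of them differed 97.4-fold in TPM in the labelled knockout and 67.5-fold in wild type, while the largest plain fold (*Cldn11*) was 2.28 times the smallest (*Cst9*). Their median plain fold was 5.72. Among the 14883 measured protein-coding genes with a value above 0 in wild type, 8.20% had a plain fold within the range of the 10 and 5.27% had a larger one. These shares leave out 117 measured protein-coding genes listed at 0 in wild type, for which no plain fold can be given. In summed TPM the 10 genes had 641 in the labelled knockout and 110.0 in wild type, 5.82-fold higher, which is 0.0641% of all TPM in the labelled knockout and 0.0110% in wild type.

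The make-up of that sum does not depend on how the libraries are scaled. *Clu* held 34.4% of it in the labelled knockout and 27.9% in wild type, a gain of 6.50 points, the widest of the 10. *Cst9* held 8.87% in the labelled knockout and 13.8% in wild type, a difference of -4.97 points. *Cst12* held 7.37% in the labelled knockout and 9.14% in wild type. *Defb19* held 19.3% in the labelled knockout and 18.6% in wild type, and *Ctsl* held 17.2% in the labelled knockout and 17.7% in wild type. The order of the 4 most abundant genes, *Clu*, *Defb19*, *Ctsl* and *Cst9*, was the same in both libraries. *Gata4* and *Sox9* had the lowest levels in both.

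**Figure D2:**
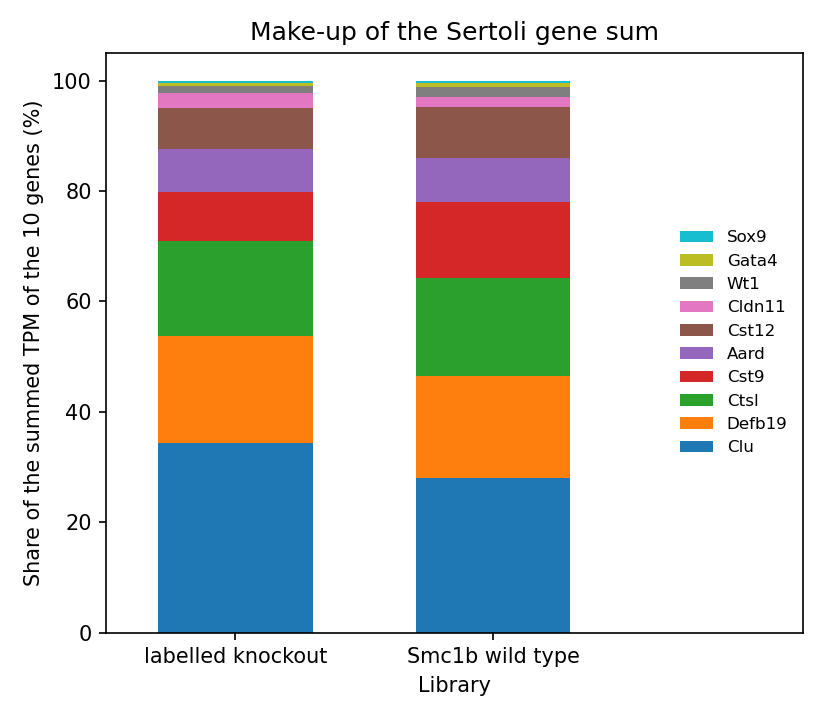
Share of each gene, in percent, in the summed TPM of the 10 Sertoli genes, with the labelled knockout on the left and the Smc1b wild type on the right. *Clu* takes 34.4% in the labelled knockout and 27.9% in wild type, and *Cst9* takes 8.87% in the labelled knockout and 13.8% in wild type.

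The 10 genes varied in length, base content and position. Their lengths in the table run between 394 bases (*Defb19*) and 6489 bases (*Ctsl*), and their G+C content between 41.3% (*Cst9*) and 51.0% (*Sox9*). The medians of the 15000 protein-coding genes were 3978 bases and 45.5%. They lie on 6 chromosomes, with 4 on chromosome 2, 2 on chromosome 14 and 0 on the X chromosome. The table listed no gene overlapping 9 of the 10. *Ctsl* overlaps an antisense gene and a processed pseudogene, both listed at 0 in both libraries.

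Both cystatin genes stand in a cystatin cluster on chromosome 2 whose genes went opposite ways in the same pair of libraries. *Cst12* and *Cst9* were higher in the labelled knockout, while *Cst8* and *Cst13*, which lie between them on the same strand, were lower. *Cst8*, known as a cystatin of the male germ line and epididymis, had 3.88 TPM in the labelled knockout and 23.8 TPM in wild type, a log2 ratio of -2.35. *Cst13* had 0.67 TPM in the labelled knockout and 8.71 TPM in wild type, a log2 ratio of -2.54. The whole cluster, set out after these neighbours' values were seen, runs from *Cstl1* to *Cst3* (148750358 to 148875692 on mm10 chromosome 2) and holds 9 protein-coding genes. Of the 8 that were measured, 5 were higher, *Cst12* and *Cst9* included, and 3 lower by 2-fold or more. Of all measured protein-coding genes, 18.7% were higher and 16.5% lower by that much. The gene 9230104L09Rik passed the filter through the labelled knockout alone. Of the 7 that reached 1 TPM in wild type, 4 were higher, *Cst12* and *Cst9* included, and 3 lower. Among protein-coding genes chosen that way, 12.1% were higher and 19% lower.

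Apart from *Cst12* and *Cst9*, the higher genes of the cluster were 8030411F24Rik, *Cst3* and 9230104L09Rik. The first, which the table describes as cystatin-14, had 7.58 TPM in the labelled knockout and 1.46 TPM in wild type. *Cst3*, encoding cystatin C, a secreted inhibitor made by many cell types, had 116 TPM in the labelled knockout and 25.1 TPM in wild type. 9230104L09Rik had 10.3 TPM in the labelled knockout and was listed at 0 in wild type. *Cstl1*, a cystatin-like gene at the edge of the cluster, was lower, at 0.41 TPM in the labelled knockout and 7.37 TPM in wild type.

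**Figure D3:**
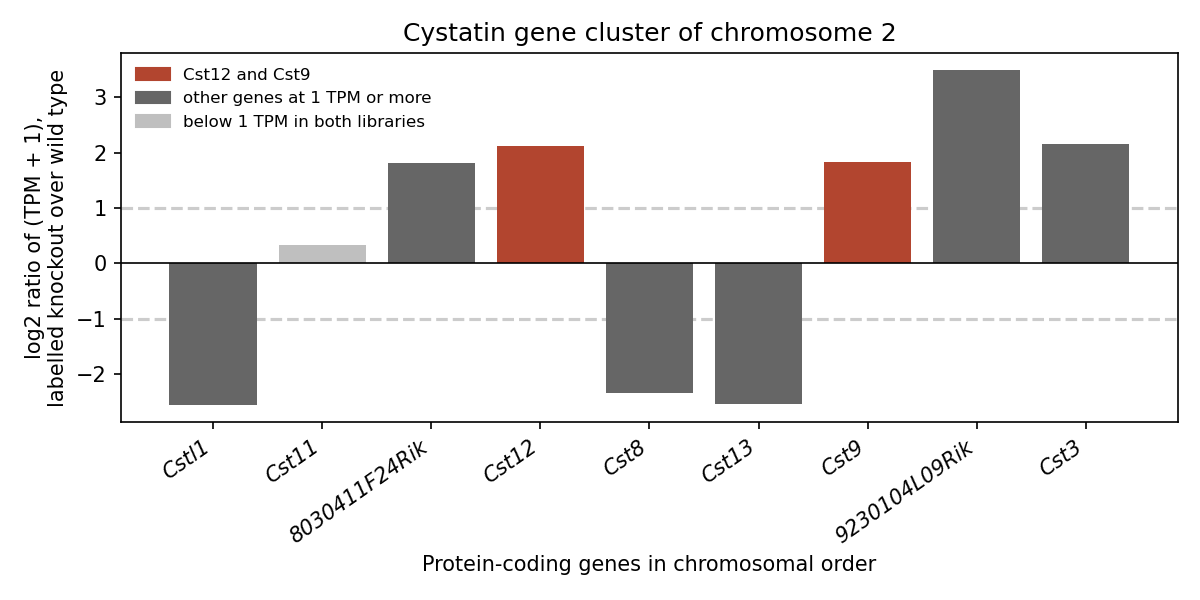
Log2 ratio of (TPM + 1), labelled knockout over Smc1b wild type, for the 9 protein-coding genes of the cystatin cluster in chromosomal order, with dashed lines at 2-fold. *Cst12* (2.12) and *Cst9* (1.83) are above 0, and *Cst8* (-2.35) and *Cst13* (-2.54) between them are below it.

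The promoters of these 4 neighbours are shown because the genes lie side by side and differed in direction, and that of *Ctsl* because, among the promoters at hand for the 10 genes, it alone held a searched motif. The sequences are from RefSeq (GRCm38.p6), run from 250 bases before to 50 bases after the annotated start, and are written 5′ to 3′ on the strand of the gene. Of the 10 genes, 4 had an entry (*Cst12*, *Cst9*, *Cldn11* and *Ctsl*). Capitals mark matches to any of 5 motifs on either strand.
Cst12 (chr2:148789115-148789414, plus strand): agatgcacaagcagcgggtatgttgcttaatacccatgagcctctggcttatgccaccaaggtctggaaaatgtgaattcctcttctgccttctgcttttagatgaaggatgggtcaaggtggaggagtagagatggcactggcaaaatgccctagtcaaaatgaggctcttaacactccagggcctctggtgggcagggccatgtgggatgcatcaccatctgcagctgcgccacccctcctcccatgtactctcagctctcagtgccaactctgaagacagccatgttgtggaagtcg
Cst8 (chr2:148798589-148798888, plus strand): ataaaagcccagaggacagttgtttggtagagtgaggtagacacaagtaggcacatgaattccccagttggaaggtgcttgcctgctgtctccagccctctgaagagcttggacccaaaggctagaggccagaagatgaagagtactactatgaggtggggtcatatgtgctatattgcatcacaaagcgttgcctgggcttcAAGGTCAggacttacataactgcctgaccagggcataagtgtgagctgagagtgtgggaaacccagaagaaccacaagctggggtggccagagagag
Cst13 (chr2:148819849-148820148, plus strand): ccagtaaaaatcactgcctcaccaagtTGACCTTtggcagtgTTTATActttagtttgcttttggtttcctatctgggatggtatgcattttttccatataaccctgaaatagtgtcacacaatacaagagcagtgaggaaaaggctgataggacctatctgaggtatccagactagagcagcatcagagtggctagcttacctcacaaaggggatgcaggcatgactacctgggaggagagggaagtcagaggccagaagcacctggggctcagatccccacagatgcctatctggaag
Cst9 (chr2:148834897-148835196, plus strand): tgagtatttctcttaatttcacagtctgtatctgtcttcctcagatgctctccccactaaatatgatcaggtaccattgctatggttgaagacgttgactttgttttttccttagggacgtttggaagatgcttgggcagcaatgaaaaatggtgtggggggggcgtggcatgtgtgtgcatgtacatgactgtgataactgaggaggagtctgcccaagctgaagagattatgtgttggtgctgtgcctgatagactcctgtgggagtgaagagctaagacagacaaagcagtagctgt
Ctsl (chr13:64370471-64370770, minus strand): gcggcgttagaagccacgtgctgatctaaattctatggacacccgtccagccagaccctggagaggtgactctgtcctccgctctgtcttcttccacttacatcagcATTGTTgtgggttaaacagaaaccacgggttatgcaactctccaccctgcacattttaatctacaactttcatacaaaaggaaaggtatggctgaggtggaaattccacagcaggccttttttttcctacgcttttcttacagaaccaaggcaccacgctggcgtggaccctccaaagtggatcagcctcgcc

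Each motif was searched on both strands and its share counted among 32851 promoters of the same length. The SOX motif, AACAAT, was found in 10.7% of them. The motif bound by GATA factors, AGATAA, was found in 11.2%. For the orphan receptor NR5A1 the letters AAGGTCA were found in 4.72%. The core of the cAMP response element, TGACG, was found in 20.8%. The TATA box, searched as TATAAA, was found in 13.6%. The promoters of *Cst12*, *Cst9* and *Cldn11* held none of the 5. That of *Ctsl* held the SOX letters on the opposite strand, 143 bases before the start. Of the lower cystatins, *Cst8* held the NR5A1 letters 47 bases and *Cst13* 223 bases before the start, while *Cstl1* held no NR5A1 letters and had the SOX letters on the opposite strand 192 bases before the start. *Cst13* also held the TATA letters on the opposite strand 208 bases before the start, with no overlap between matches. These starts are those of RefSeq. For *Ctsl*, *Cst8*, *Cst12*, *Cst13* and *Cstl1* the RefSeq start lies inside the span that the table gives the gene. The SOX match of *Ctsl* and the NR5A1 match of *Cst8* lie inside the span of their gene as well. A match is a run of letters and not a shown binding site.

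*Defb19* stands in a row of 11 beta-defensin genes on chromosome 2, of which 4 were measured. Past 2-fold, 3 of the 4 were higher, *Defb19* included, and 0 lower, beside 18.7% higher and 16.5% lower among measured protein-coding genes. *Defb28* passed the filter through the labelled knockout alone, and 2 of the 3 that reached 1 TPM in wild type were higher. Among protein-coding genes chosen that way, 12.1% were higher and 19% lower. *Defb36*, which lies close by and is also expressed by Sertoli cells, had 24.1 TPM in the labelled knockout and 5.17 TPM in wild type, a log2 ratio of 2.02. *Defb45*, between *Defb19* and *Defb36*, had 4.30 TPM in the labelled knockout and 3.96 TPM in wild type, a log2 ratio of 0.09. *Defb28* had 1.97 TPM in the labelled knockout and was listed at 0 in wild type. *Defb21*, whose end lies 1142 bases from *Defb19*, was listed at 0 in both libraries.

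A wider set of 40 Sertoli genes, none of them among the 10, was split by role. Of the 35 that were measured, 21 were higher and 2 lower by 2-fold or more, with a median log2 ratio of 1.24. Among all measured protein-coding genes, 18.7% were higher and 16.5% lower by that much. Many of the 35 passed the filter through the labelled knockout alone and so had to be higher there. Of the 21 that reached 1 TPM in wild type, 14 were higher and 2 lower, while among protein-coding genes chosen that way 12.1% were higher and 19% lower. The wider set, like the 10 genes, was chosen with earlier results of these data known, so these counts are no independent check. The 13 transcription factors and receptors had 11 at 1 TPM or more, with 9 higher and 0 lower and a median of 1.41. Of these 11, 7 reached 1 TPM in the labelled knockout alone, 5 of the 9 higher ones among them, and the 4 that reached it in wild type were all higher. *Nr5a1*, the orphan receptor SF1 that Leydig cells also use, had 9.15 TPM in the labelled knockout and 1.07 TPM in wild type. *Dmrt1*, which guards male fate in Sertoli cells and is also made by spermatogonia, had 7.21 TPM in the labelled knockout and 0.79 TPM in wild type. *Mro* had 8.49 TPM in the labelled knockout and 1.57 TPM in wild type. *Nr0b1*, an X-linked corepressor, had 4.87 TPM in the labelled knockout and 0.74 TPM in wild type. Of the 5 X-linked genes in this group that were measured, 4 were at least 2-fold higher with a median of 1.15, against 1.30 for all 620 measured X-linked protein-coding genes. Of the 6 autosomal ones, 5 were higher with a median of 1.72, against -0.08 for the autosomal protein-coding genes.

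Some other Sertoli genes, named for their role after their values were seen, were at a few TPM or less in both libraries. *Fshr*, the receptor for follicle-stimulating hormone, had 0.45 TPM in the labelled knockout and 0.030 TPM in wild type, below 1 TPM in both. *Rhox5*, an X-linked homeobox gene of mouse Sertoli cells, had 4.57 TPM in the labelled knockout and 1.43 TPM in wild type. Its log2 ratio of 1.20 was past 2-fold. *Amh*, the anti-Müllerian hormone typical of immature Sertoli cells, had 1.25 TPM in the labelled knockout and 0.51 TPM in wild type, a log2 ratio of 0.58.

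The 15 hormones, growth factors and other secreted products had 13 genes at 1 TPM or more, with 7 higher, 1 lower and a median log2 ratio of 1.27. Among all measured protein-coding genes, 18.7% were higher and 16.5% lower. Of the 8 secreted products that reached 1 TPM in wild type, 5 were higher and 1 lower. The shares among protein-coding genes chosen that way were 12.1% higher and 19% lower. *Ptgds*, a prostaglandin synthase that binds small lipids and is not restricted to Sertoli cells, had 155 TPM in the labelled knockout and 7.97 TPM in wild type, a log2 ratio of 4.12 that was above those of all 10 Sertoli genes. *Serpina5*, a protease inhibitor, had 14.3 TPM in the labelled knockout and 1.48 TPM in wild type. *Inha*, the alpha subunit of inhibin, had 15.3 TPM in the labelled knockout and 3.13 TPM in wild type. The exception was *Pdgfa*, a growth factor gene, at 5.32 TPM in the labelled knockout and 22.4 TPM in wild type, a log2 ratio of -1.89.

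The 12 junction and cytoskeleton genes had 11 at 1 TPM or more, with 5 higher, 1 lower and a median log2 ratio of 0.89. Among all measured protein-coding genes, 18.7% were higher and 16.5% lower. All 5 higher genes of this list were among its 9 that reached 1 TPM in wild type. Among protein-coding genes chosen that way, 12.1% were higher and 19% lower. *Vim*, an intermediate filament gene of Sertoli cells and of mesenchymal cells, had 45.2 TPM in the labelled knockout and 5.04 TPM in wild type. Its log2 ratio was 2.94. *Tubb3*, *Gja1* (connexin of gap junctions) and *Nectin2* (an adhesion molecule at the contact with spermatids) had log2 ratios of 1.95, 1.86 and 1.61. *Cldn3*, a second barrier claudin of mouse Sertoli cells, was lower, at 0.38 TPM in the labelled knockout and 4.44 TPM in wild type. *Cdh2*, N-cadherin, had 43.3 TPM in the labelled knockout and 57.4 TPM in wild type, with a direction that turned under 1 of 3 rescalings.

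**Figure D4:**
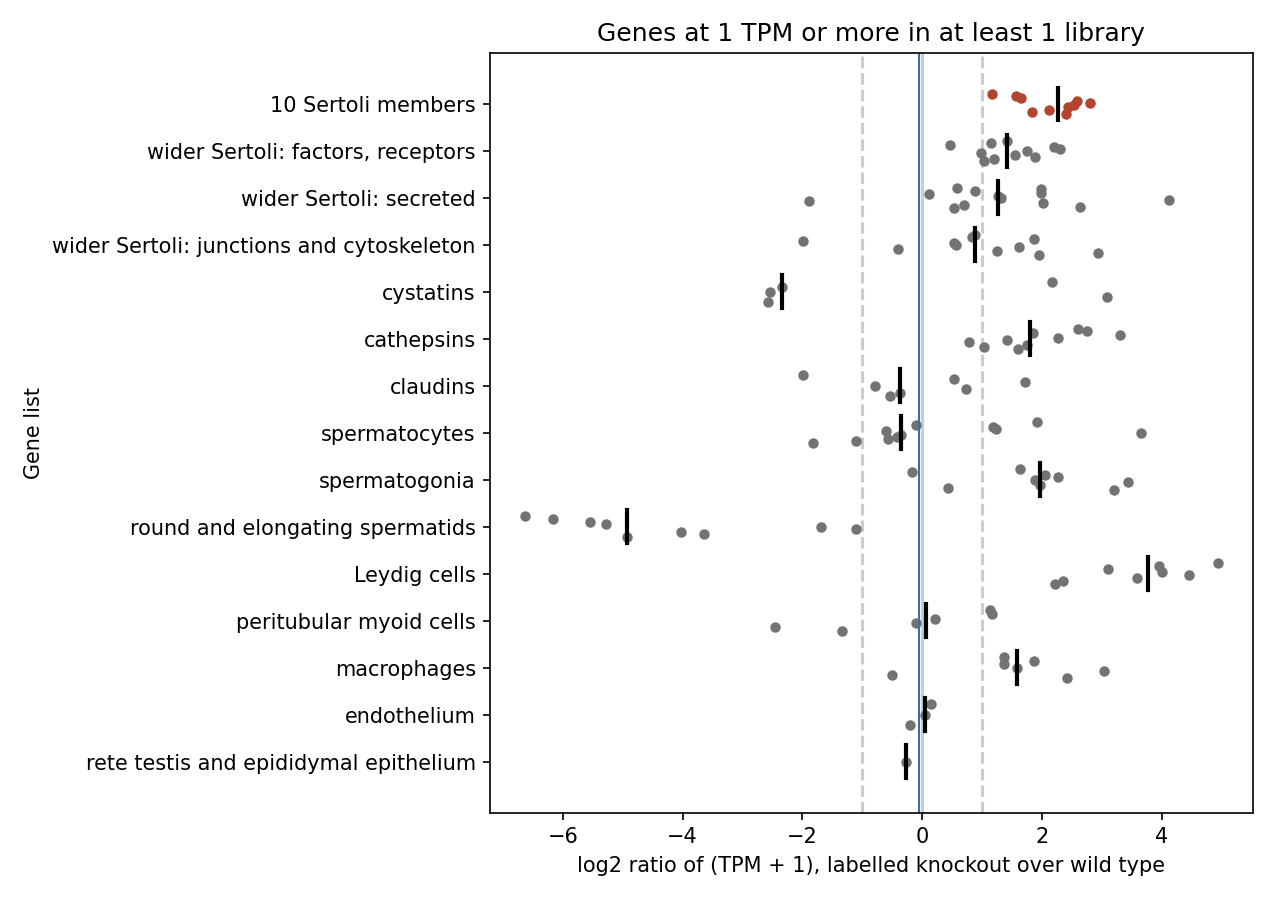
Log2 ratio of (TPM + 1), labelled knockout over Smc1b wild type, for each measured gene, by list. Black bars are list medians, the blue line is the median of protein-coding genes (-0.05) and dashed lines mark 2-fold, and the 10 Sertoli genes lie between 1.17 and 2.80.

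Of 21 other claudins (*Cldn3* and *Cldn5* also in the junction list), 14 were below 1 TPM in both libraries. The 7 measured had 1 higher, 1 lower and a median log2 ratio of -0.37. That median turned positive when libraries were rescaled to their protein-coding total, where the median of measured protein-coding genes was 0.32. A count of 1 of 7 either way is near the 18.7% higher and 16.5% lower of all measured protein-coding genes. *Cldn7* had 6.58 TPM in the labelled knockout and 1.30 TPM in wild type. *Cldn12* had a log2 ratio of 0.73, and *Cldn10*, *Cldn34c1* and *Cldn20* had ratios of -0.78, -0.54 and -0.37. *Cldn11*, at 17.2 TPM, was the most abundant claudin gene listed in the labelled knockout, while in wild type *Cldn34c1* (11.7 TPM), *Cldn12* (6.32 TPM), *Cldn3* (4.44 TPM) and *Cldn20* (3.22 TPM) stood above its 2.02 TPM.

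Of 13 other cathepsins, 10 were at 1 TPM or more, with 9 higher, 0 lower and a median log2 ratio of 1.79. Of all measured protein-coding genes, 18.7% were higher and 16.5% lower by 2-fold or more. Of the 10 cathepsins, 5 reached 1 TPM in the labelled knockout alone, all 5 of them higher. Of the 5 that reached it in wild type, 4 were higher, beside 12.1% of protein-coding genes chosen that way. *Ctsd* had 24.6 TPM in the labelled knockout and 1.60 TPM in wild type, *Ctsb* had 28.5 TPM in the labelled knockout and 3.40 TPM in wild type, and *Ctsa* had 7.65 TPM in the labelled knockout and 0.43 TPM in wild type. *Ctsf* had a log2 ratio of 2.26. These lysosomal enzymes are made by many cell types, macrophages included. *Ctsl* was more abundant than each of them in both libraries. Cystatins outside the 10, listed by symbols that start with Cst, had 10 genes in the table and 5 at 1 TPM or more. Of these 5, *Cst3* and *Cstb* were higher and *Cst8*, *Cst13* and *Cstl1* were lower. That list leaves out 8030411F24Rik, described as cystatin-14, which was also higher with a log2 ratio of 1.80. *Cstb*, an intracellular inhibitor, had 17.3 TPM in the labelled knockout and 1.17 TPM in wild type.

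Markers of other testis cells moved in the same pair of libraries, and their part in the values of the Sertoli genes was not tested. For comparison, 18.7% of all measured protein-coding genes were higher and 16.5% lower by 2-fold or more. Among those at 1 TPM or more in wild type, 12.1% were higher and 19% lower. The 8 Leydig genes were all at least 2-fold higher, with a median log2 ratio of 3.77, and summed to 1665 TPM in the labelled knockout and 63.8 TPM in wild type, 26.1-fold higher. Of these 8, 7 had a plain fold above the 8.51-fold of *Cldn11*, and 7 reached 1 TPM in wild type. *Insl3*, a peptide hormone of Leydig cells, had 1352 TPM in the labelled knockout and 43.3 TPM in wild type. The steroid enzyme genes *Hsd3b6*, *Hsd3b1* and *Cyp17a1* had log2 ratios of 4.46, 4.01 and 3.95. Of 10 spermatogonia genes, 9 were at 1 TPM or more and 7 were higher, 5 of them measured through the labelled knockout alone, and 2 of the 4 that reached 1 TPM in wild type were higher. The spermatogonia list summed to 78.3 TPM in the labelled knockout and 13.1 TPM in wild type. *Sohlh2* and *Stra8* had log2 ratios of 3.44 and 3.20. Short of 2-fold were *Nanos3*, with a log2 ratio of 0.42, and *Gfra1*, with -0.17 and a direction that turned under rescaling. *Nanos2*, below 1 TPM in both libraries, had a log2 ratio of -0.64. Of 10 macrophage genes, 7 were at 1 TPM or more and 6 were higher, and all 6 passed the filter through the labelled knockout alone. The 1 macrophage gene that reached 1 TPM in wild type, *Cx3cr1*, had 1.01 TPM in the labelled knockout and 1.83 TPM in wild type. The macrophage list summed to 30.7 TPM in the labelled knockout and 4.50 TPM in wild type. *Lyz2* had 13.8 TPM in the labelled knockout and 0.79 TPM in wild type, where *C1qa* and *Fcer1g* were listed at 0. The 6 measured peritubular myoid genes had 2 higher and 2 lower, with sums of 17.0 TPM in the labelled knockout and 42.8 TPM in wild type. *Actg2* and *Mylk* had log2 ratios of -2.45 and -1.34, and *Des* and *Acta2* had ratios of 1.16 and 1.13. The 3 measured endothelial genes had 0 past 2-fold in either direction.

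Of 8 genes of rete testis and epididymal epithelium, 7 were below 1 TPM in both libraries, and *Lcn5* and *Lcn9* were listed at 0 in both. The 9 spermatid genes were all at least 2-fold lower and summed to 74.5 TPM in the labelled knockout and 2586 TPM in wild type. The 11 spermatocyte genes, the labelled cell type, were all present, with sums of 4371 TPM in the labelled knockout and 6088 TPM in wild type. Past 2-fold, 4 were higher and 2 lower, with a median log2 ratio of -0.36 that turned positive under 1 of 3 rescalings. Of all measured protein-coding genes, 18.7% were higher and 16.5% lower by that much. *Pgk2*, a germ-cell glycolytic enzyme, had 58.2 TPM in the labelled knockout and 209 TPM in wild type, and *Ldhc*, the germ-cell lactate dehydrogenase subunit, had 1585 TPM in the labelled knockout and 3398 TPM in wild type. *Stag3*, a meiotic cohesin subunit, and *Hspa2*, a germ-cell chaperone, had log2 ratios of -0.61 and -0.57. *Dmc1*, the meiotic recombinase, had 21.3 TPM in the labelled knockout and 0.78 TPM in wild type, so it passed the filter through the labelled knockout alone. *Sycp1*, the transverse filament that joins paired meiotic chromosomes, had 259 TPM in the labelled knockout and 68.4 TPM in wild type. The 10 Sertoli genes summed to less than the 11 spermatocyte genes in both libraries.

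Every one of the 10 genes stayed higher in the labelled knockout under 5 other ways of computing the ratio. With 0.1 TPM added in place of 1 TPM, the log2 ratios ran between 1.89 and 3.03. With 5 TPM added they ran between 0.41 and 2.66, and 7 of 10 stayed at least 2-fold higher. *Wt1*, *Gata4* and *Sox9* then had ratios of 0.89, 0.73 and 0.41. With the same 5 TPM added, 6.87% of measured protein-coding genes were at least 2-fold higher. Under 3 rescalings of the libraries all 10 stayed at least 2-fold higher, beside 22.3%, 28.1% and 27.2% of measured protein-coding genes. These rescalings moved the median of protein-coding genes by 0.19, 0.41 and 0.36, and the median of the 10 genes lay 2.32, 2.34 and 2.34 above it, against 2.31 as deposited.

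**Figure D5:**
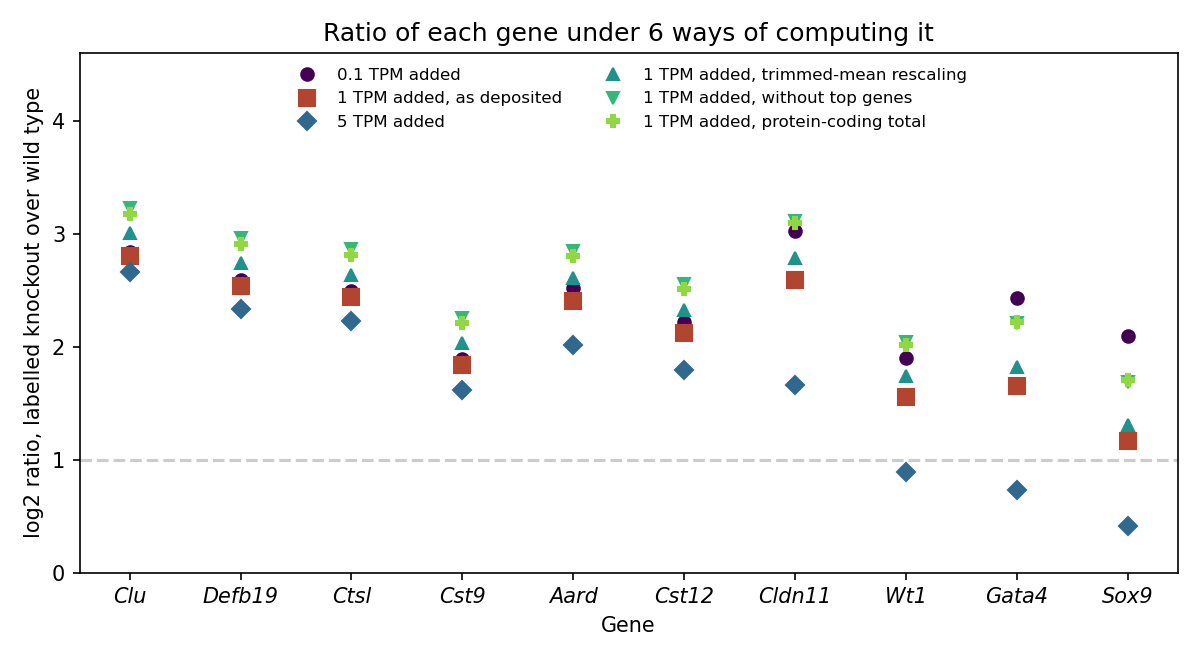
Log2 ratio, labelled knockout over Smc1b wild type, for each of the 10 genes under 6 ways of computing it (3 added values and 3 rescalings of the libraries), with a dashed line at 2-fold. The ratios of the 6 most abundant genes lie close together, and those of *Wt1*, *Gata4* and *Sox9* drop below 2-fold with 5 TPM added.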

How the data were processed

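RNA was depleted of ribosomal RNA and made into strand-specific libraries, and sequenced as 75-base single-end reads, per the labels' protocols. The authors deposited gene-level TPM values, 1 column per library. The submitters' processing notes name bcl2fastq 2.19.1, GSNAP, kallisto 0.43.1, TopHat and mm10, while the sources used here do not state their roles or whether counting used strand. Per the file headers, the deposited table also gives gene length in bases and G+C content in percent. All 10 Sertoli genes had the same position in GENCODE M21.

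Libraries were mapped to genotypes by their labels. Log2 ratios used TPM + 1 and the genes that reached 1 TPM in either library. No test was possible with 1 library per genotype. Where a symbol was repeated (129 entries), the row with the higher mean TPM was used. Lists other than the 10 genes were described by counts, medians and sums. From each, up to 4 genes furthest toward the list median and up to 2 on the opposite side were named. Genes listed at 0 in 1 library were named with them. Others were named after their values were seen. These were the genes of the cystatin and defensin clusters and genes listed at 0 in both libraries. They also included 3 other Sertoli genes (*Fshr*, *Rhox5* and *Amh*) and the spermatogonia genes *Nanos2* and *Nanos3*. The 10 genes and the lists were chosen with earlier results of these data known. Alternatives were added values of 0.1 and 5 TPM, rescaling to the protein-coding total, to the total left after removing mitochondrial genes and the 20 most abundant genes, or by the mean of log2 ratios after trimming 30% from both ends, other filters and 4-fold. The code for the ratio, the 2-fold count and the trimmed mean was tested on simulated data, while the code that rescales the libraries was not. The code ran in Python 3.11.15 with pandas 2.3.3, NumPy 2.4.6 and Matplotlib 3.10.9.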

Additional observations from a re-analysis of the deposited data

How the results depend on the processing

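With 1 library per genotype and no read counts, neither replicate error nor counting error could be given, so a value was taken as moved when it changed by over 1.5 times. No paired analysis was possible because each genotype had 1 library and no test was run, and no library could be left out. Of 101 alternative values for 25 results, 85 were not moved. With 0.1 TPM added, the log2 ratios of *Sox9* and *Gata4* were 2.09 and 2.44. With 5 TPM added, those of *Sox9*, *Wt1*, *Gata4* and *Cldn11* were 0.41, 0.89, 0.73 and 1.66. This follows from the size of the added value beside levels of a few TPM. At 4-fold instead of 2-fold, the count of higher genes was 6 of the 10 Sertoli genes, 2 of the wider factors and receptors, 3 of the secreted products, 1 of the junction genes, 4 of the cathepsins and 0 of the claudins. Of all measured protein-coding genes, 4.68% were higher by 4-fold or more. Rescaled to the protein-coding total, the median log2 ratio was 2.02 for the wider factors and receptors, 2.44 for cathepsins and 0.38 for claudins. The claudin median thus turned positive, and 2 of 8 claudins were at least 2-fold higher. Under that rescaling the median of measured protein-coding genes was 0.32, and 27.2% of them were at least 2-fold higher, so the claudins were near that background. For the claudins and cathepsins the rescaling also let 1 more gene reach 1 TPM. The summed TPM of the 10 genes was 5.30-fold higher without *Clu*, against 5.82-fold with it.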

Other observations

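The nearest protein-coding genes on either side of the 10 Sertoli genes, were 20 in all and none of them among the 10. Of the 12 that reached 1 TPM in either library, 2 were higher and 3 lower by 2-fold or more, with a median log2 ratio of -0.05. These are 16.7% and 25% of the 12, beside 18.7% higher and 16.5% lower among all measured protein-coding genes, so with 12 genes the counts are no result about the neighbours. The 2 higher genes, 8030411F24Rik and 9230104L09Rik, and 2 of the 3 lower ones, *Cst8* and *Cst13*, belong to the cystatin cluster. The third lower gene was *Cdk20*, a kinase gene beside *Ctsl*, at 24.9 TPM in the labelled knockout and 58.6 TPM in wild type. *Skil*, beside *Cldn11*, had 11.7 TPM in the labelled knockout and 6.11 TPM in wild type, and *Neil2*, 5066 bases from *Gata4*, had 4.37 TPM in the labelled knockout and 5.49 TPM in wild type.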
